A study of Homo sapiens with 12 samples.

Results

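The mitochondrial ribosomal protein genes encode the protein part of the mitochondrial ribosome, and they were taken here as every row of both count tables whose symbol was MRPL or MRPS followed by a number and, in some, a letter from A to C. The rule used symbols alone and found 78 of 28008 listed genes, 49 named for the large subunit (MRPL) and 29 for the small subunit (MRPS). RNA-seq had been performed on QGP-1 and BON-1, 2 human pancreatic neuroendocrine tumor (pNET) cell lines, each carrying a tetracycline-inducible MUC1 short hairpin RNA (tet-MUC1shRNA). In each line, 3 libraries came from cells given the vehicle, 0.1% DMSO, and 3 from cells given doxycycline (DOX) at 500 ng/mL for 7 days, which switches the hairpin on. QGP-1 cells were grown in RPMI 1640 and BON-1 cells in DMEM/F-12, so that line and medium cannot be told apart. All 12 libraries carried the MUC1 hairpin and none came from DOX-treated cells without it, so that the hairpin and DOX itself cannot be told apart. Each line is a drug-selected transduced culture grown in triplicate, and p-values measure the spread between these cultures. The comparisons asked how the genes responded to DOX in each line, whether the lines differed in that response, and how their levels differed with vehicle.

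Library totals ran from 38224144 to 50525926 counts in QGP-1 and from 15981954 to 28484324 counts in BON-1. MUC1 was measured at 7.37, 5.95 and 5.79 CPM (read counts scaled to a common library total, with TMM factors over all 12 libraries) in the QGP-1 vehicle libraries and at 0.722, 1.07 and 0.762 CPM with DOX. In BON-1 it averaged 18.4 CPM with vehicle and 2.65 CPM with DOX, so that the groups did not overlap in either line. Of 10 neuroendocrine markers, 10 exceeded 1 CPM in QGP-1 and 9 in BON-1, where NCAM1 was at 0.0588 CPM with vehicle.

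The mitochondrial ribosome translates the few proteins encoded by mitochondrial DNA, all of them subunits of the oxidative phosphorylation complexes. Its ribosomal RNAs are transcribed in the organelle, whereas its proteins are encoded in the nucleus, made in the cytosol and imported, so that assembly needs output from both genomes. Some of its proteins have bacterial counterparts and others were gained in the mitochondrial lineage. Doxycycline, as a tetracycline, is known to inhibit the mitochondrial ribosome. A few symbols mislead as to place. MRPS30 and MRPS18A encode proteins of the large subunit, and the MRPS36 product is now known as a component of the 2-oxoglutarate dehydrogenase complex. The counts below follow the symbols.

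Promoters are shown for 5 genes that carry the main patterns, chosen after their values were seen. MRPL17 and MRPS18B fell with DOX in both lines, MRPS33 fell in QGP-1 and rose in BON-1, MRPS18C rose in BON-1, and MRPS26 fell in BON-1. Each runs from 250 bases before to 50 bases after the start of the gene in RefSeq on GRCh38.p14, at chr11:6683291-6683590 (minus strand) for MRPL17, chr6:30617590-30617889 (plus strand) for MRPS18B, chr4:83455808-83456107 (plus strand) for MRPS18C, chr7:141014903-141015202 (minus strand) for MRPS33 and chr20:3045802-3046101 (plus strand) for MRPS26. Capitals mark every match on either strand to 9 short motifs, described after the sequences.

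MRPL17: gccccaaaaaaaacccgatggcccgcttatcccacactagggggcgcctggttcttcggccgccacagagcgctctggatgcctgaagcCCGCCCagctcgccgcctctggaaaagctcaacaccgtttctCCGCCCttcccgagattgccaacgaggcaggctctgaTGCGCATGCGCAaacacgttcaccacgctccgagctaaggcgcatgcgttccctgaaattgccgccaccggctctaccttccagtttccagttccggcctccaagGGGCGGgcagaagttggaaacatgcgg
MRPS18B: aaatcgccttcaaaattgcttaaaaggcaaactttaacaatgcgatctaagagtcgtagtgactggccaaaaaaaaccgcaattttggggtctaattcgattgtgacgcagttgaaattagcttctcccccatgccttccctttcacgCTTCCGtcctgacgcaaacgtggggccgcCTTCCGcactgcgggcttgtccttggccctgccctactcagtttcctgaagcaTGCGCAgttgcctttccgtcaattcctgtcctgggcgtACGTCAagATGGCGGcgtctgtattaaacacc
MRPS18C: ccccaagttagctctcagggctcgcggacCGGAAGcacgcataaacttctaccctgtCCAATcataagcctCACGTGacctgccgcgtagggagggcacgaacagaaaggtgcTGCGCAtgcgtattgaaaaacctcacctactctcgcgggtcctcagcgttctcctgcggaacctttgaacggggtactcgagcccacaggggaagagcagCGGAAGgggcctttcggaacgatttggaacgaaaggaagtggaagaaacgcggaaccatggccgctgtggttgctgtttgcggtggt
MRPS33: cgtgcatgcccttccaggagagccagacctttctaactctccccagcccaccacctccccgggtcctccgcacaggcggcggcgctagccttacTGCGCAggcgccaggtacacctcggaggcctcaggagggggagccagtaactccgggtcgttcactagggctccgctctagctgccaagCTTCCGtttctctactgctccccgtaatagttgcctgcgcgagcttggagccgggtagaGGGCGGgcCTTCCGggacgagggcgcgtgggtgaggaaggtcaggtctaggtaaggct
MRPS26: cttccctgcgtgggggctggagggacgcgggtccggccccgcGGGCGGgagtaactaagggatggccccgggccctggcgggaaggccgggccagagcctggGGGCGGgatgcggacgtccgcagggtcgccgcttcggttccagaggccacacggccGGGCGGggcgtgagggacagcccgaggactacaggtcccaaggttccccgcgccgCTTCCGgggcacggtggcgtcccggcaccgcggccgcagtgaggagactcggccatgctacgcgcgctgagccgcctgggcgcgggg

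The first motif, TGCGCA, is the core of the site of NRF1, a regulator of nuclear genes for mitochondrial proteins. The ETS core CGGAAG is the sequence that GABP recognizes. The motif taken for YY1 was ATGGCGG, and that for SP1 was GGGCGG. The E box was searched as CACGTG and the TATA box as TATAAA. The CRE core was searched as TGACGT and the NFY site as CCAAT. The last motif was the E2F site, TTTCGCG. None of the 9 contains another of them. Of the 78 genes, 69 had a promoter in the RefSeq table. The YY1 motif was present in 34.8% of these 69 promoters, against 5.72% of all 27305 promoters and 9.28% of the 11889 belonging to genes tested in these libraries. The ETS core was present in 53.6% of the 69, against 19.9% of all and 29.9% of tested genes, and the NRF1 core in 20.3%, against 8.42% and 12.5%. The TATA box was rare, in 2.90% against 6.54% of tested genes. The SP1 motif was in 60.9% against 66.8% of tested genes, and the NFY site in 29.0% against 36.3%. The CRE core was in 7.25% against 11.1%, the E box in 8.70% against 9.66% and the E2F site in 1.45% against 2.19%. In the printed sequences, MRPL17 held adjacent NRF1 cores and SP1 matches, MRPS18B held a YY1 match beside its start, and MRPS33 held ETS cores on its reverse strand and an NRF1 core. The large and small subunit promoters had similar shares, 54.8% and 51.9% for the ETS core and 33.3% and 37.0% for the YY1 motif. These matches describe letters in the window and no binding was measured.

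The genes took 0.378% ± 0.0144 (SD, n = 3) of all counts in QGP-1 with vehicle and 0.320% ± 0.00887 with DOX. In BON-1 the share was 0.421% ± 0.0146 with vehicle and 0.386% ± 0.0178 with DOX. In such bulk samples fewer cells of a kind and less RNA per cell cannot be told apart. Per length, on the deposited TPM, which divide each count by gene length and scale each library to 1 total, MRPS15, a small subunit protein with a bacterial counterpart that binds ribosomal RNA, took 10.1% ± 0.219 of the summed TPM of the genes in QGP-1 vehicle libraries. MRPL51 took 5.60% ± 0.151 and MRPL21 4.88% ± 0.186. In BON-1 the leading shares were MRPL51 at 5.62% ± 0.184, MRPS15 at 4.38% ± 0.329 and MRPS30 at 4.37% ± 0.285, the last 2 of which did not differ beyond their spread. These places rest on the lengths behind the TPM. Per kilobase of canonical GENCODE transcript, MRPS15 still led in QGP-1 at 258 CPM, whereas in BON-1 MRPS30 led at 128 CPM and MRPL51 was the sixth at 84.5 CPM. MRPS25 and MRPS18B were lowest among the genes with counts above the filter, at 0.0711% and 0.0765% in QGP-1. The gene length behind the TPM of MRPS18B, as its counts imply it, was 26.5 times that of MRPL51, whereas its canonical GENCODE transcript is 1.56 times as long.

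MRPS24 stood apart with 1 count over all 12 libraries, of 385345516 counts in all, and was the member that failed the filter on low counts. Its locus on chromosome 7, from 43866558 to 43869893 in GENCODE 44, is overlapped on the same strand by the readthrough gene URGCP-MRPS24, which had 0 counts, while URGCP upstream was measured at 32.7 CPM in QGP-1 vehicle libraries. How reads shared by overlapping genes were counted is not given in the sources used here, and its part in the single MRPS24 count was not tested. The other 77 genes were tested in every comparison.

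In QGP-1, DOX lowered 33 of the 77 genes and raised 0 at an adjusted p below 0.05 (edgeR's quasi-likelihood test with Benjamini-Hochberg adjustment over all genes), against a background of 17.7% of the 15089 genes tested called lower and 17.3% called higher. At an unadjusted p under 0.05 the counts were 41 lower and 0 higher, and DESeq2 called 35 lower and 0 higher. The median log2 fold change was -0.23 over the 77 genes and -0.01 over all genes tested, and 70 of the 77 estimates were negative. On the deposited TPM, where all genes tested had a median of 0.59, limma called 0 members lower and 60 higher, and their median relative to that of all genes was -0.20. By subunit, 19 of 49 large subunit genes fell, with a median of -0.22, as did 14 of 28 small subunit genes, with a median of -0.28. In 39 genes every DOX library lay below every vehicle library, and in 4 every one lay above, against 23.3% and 23.4% of all genes tested (46.8% either way).

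**Figure D1:**
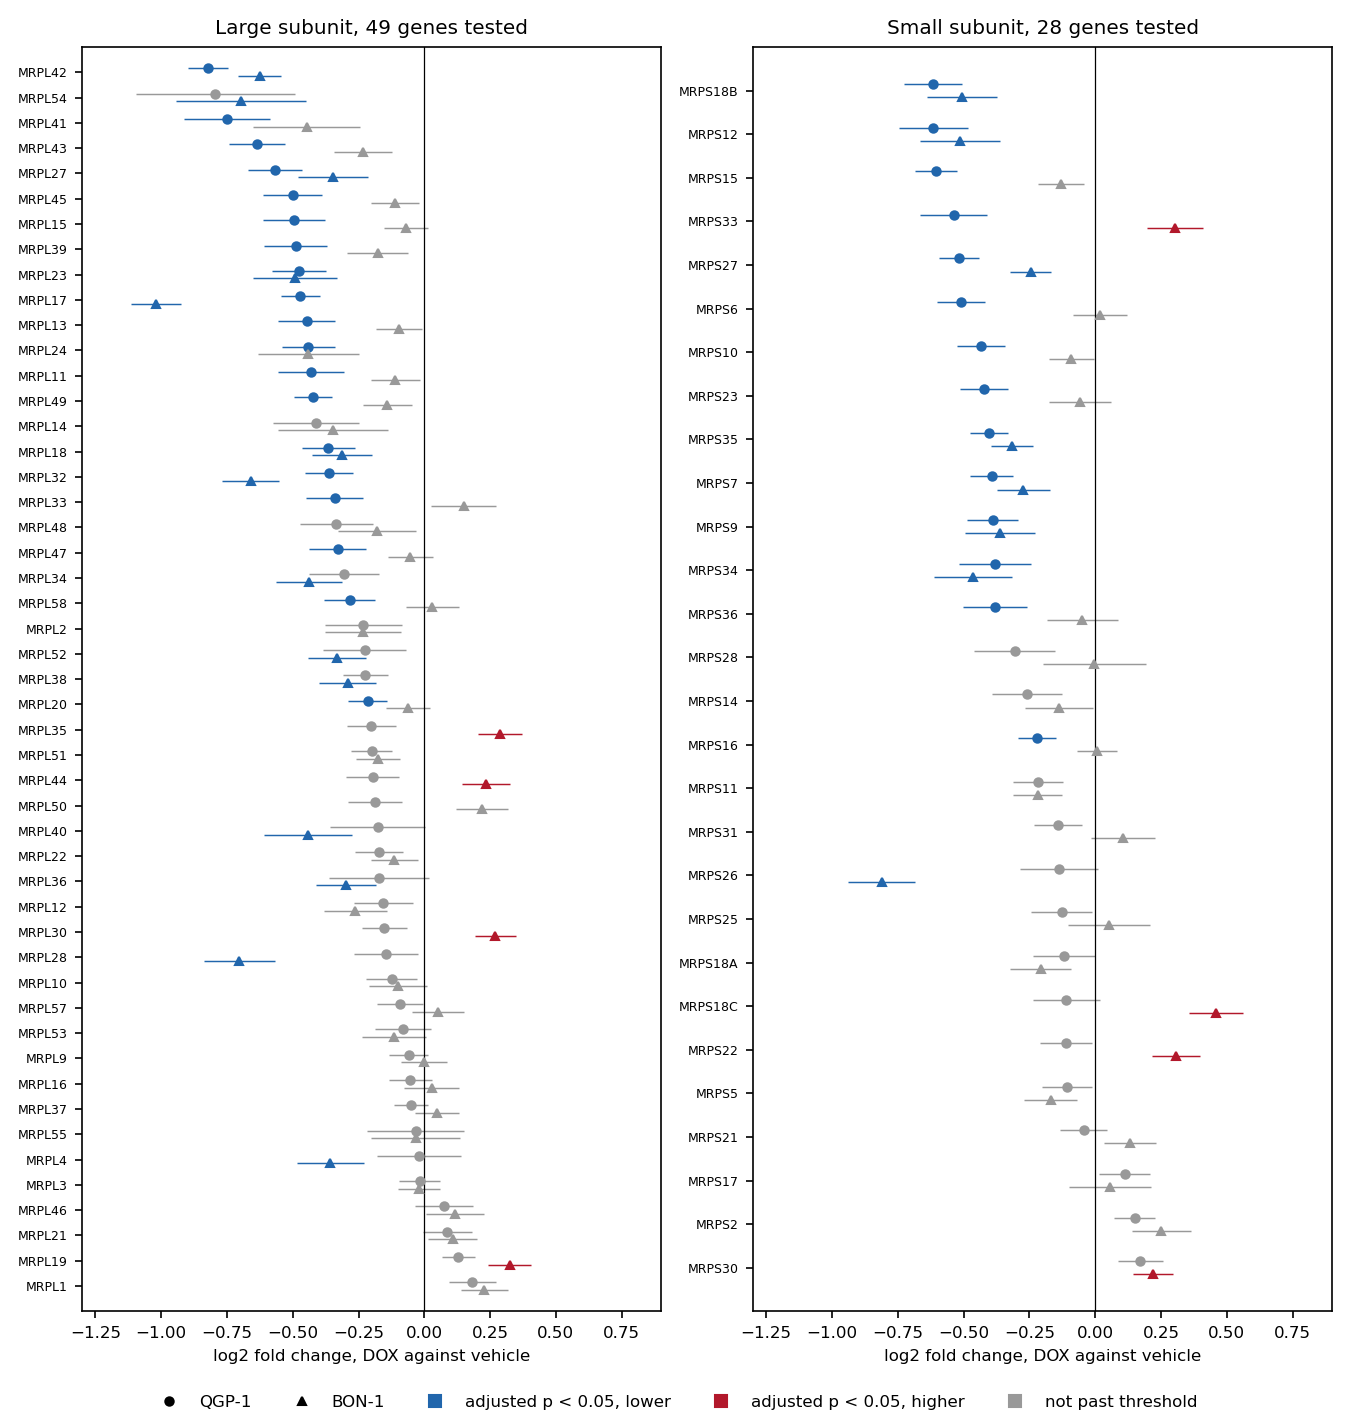
Log2 fold change with DOX for the 77 tested genes in QGP-1 (circles) and BON-1 (triangles), with the large subunit on the left and the small subunit on the right, ordered by the QGP-1 value. Bars are standard errors and colors mark calls at an adjusted p below 0.05. In QGP-1 33 genes are called lower and 0 higher, and in BON-1 22 lower and 8 higher.

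The largest fall in QGP-1 was that of MRPL42, a large subunit protein without a bacterial counterpart. The gene lies on chromosome 12 from 93467514 to 93516214 on the plus strand (GENCODE 44). It was at 149, 150 and 172 CPM with vehicle and at 83.7, 90.1 and 92.4 CPM with DOX, with no overlap (log2 fold change -0.82 ± 0.08 SE, adjusted p = 3.64e-06). GENCODE places the small RNA pseudogene RN7SL737P within MRPL42 on the same strand and lists 5 MRPL42 pseudogenes, so that some of its reads may be shared. MRPL41 was at 18.8, 17.3 and 13.0 CPM with vehicle and at 7.47, 10.5 and 11.3 CPM with DOX (-0.75 ± 0.16, adjusted p = 0.00282). MRPL43 went from 49.4 ± 1.97 to 31.8 ± 5.26 CPM (SD, n = 3) and MRPL27, the counterpart of a bacterial protein near the peptidyl transferase center, from 26.4 ± 0.915 to 17.8 ± 1.99 CPM. These large subunit genes did not overlap between the QGP-1 groups.

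Among small subunit genes in QGP-1, MRPS18B was at 26.01, 27.7 and 31.0 CPM with vehicle and at 20.7, 16.6 and 17.8 CPM with DOX (-0.62 ± 0.11, adjusted p = 0.000645). MRPS12, the counterpart of a bacterial protein of the decoding center, went from 12.4 ± 0.612 to 8.11 ± 1.13 CPM (-0.61 ± 0.13, adjusted p = 0.00235). MRPS15, the most abundant member per length, was at 232, 240 and 266 CPM with vehicle and at 171, 145 and 169 CPM with DOX (-0.60 ± 0.08, adjusted p = 6.85e-05). MRPS33 fell to a like degree, from 49.7, 54.3 and 62.4 to 45.9, 30.6 and 38.0 CPM (-0.54 ± 0.13, adjusted p = 0.00484). In all of these the highest DOX library lay below the lowest vehicle library.

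In QGP-1 the fall ran with transcript length across all genes. Among genes at a mean log2 CPM of at least 3, those with a canonical transcript under 1000 bases had a median log2 fold change of -0.28 with 47.2% called lower, and those of 6000 bases or more had a median of 0.19 with 10.1% called lower and 44.04% called higher. Of the 71 mitoribosomal genes at that level, 20 were under 1000 bases (median -0.36) and 21 were from 1000 to 1500 bases (median -0.14, against -0.19 for all genes of that class). In every longer class the members' median lay below that of all genes, as at 2000 to 3000 bases (-0.42 against -0.05, 7 members). At 6000 bases or more it was -0.35 against 0.19, over 2 members that ran opposite ways, MRPL42 (-0.82) and MRPL19 (0.13). The members' own fold changes showed little relation to length (Spearman's rho 0.10 over 77 genes, against 0.28 over 13877 genes, both across genes that share libraries). With an offset for length and GC content in the fit, added after seeing the data, 25 members were lower and 4 higher, and their median relative to all genes was -0.10 in place of -0.21. The shares of all genes called with the offset are not given here, and the 17.7% lower and 17.3% higher above are without it. By subunit the offset left 12 of 49 large and 13 of 28 small subunit genes called lower. Of the 33 falls, 23 kept the call and 10 lost it. MRPL42 (-1.03), MRPS33 (-0.58), MRPS18B (-0.48) and MRPS15 (-0.40) were among those kept. The offset, here and below, took canonical transcript lengths. Relative to MRPL51, the lengths implied by counts and TPM were 0.441 times the canonical ones for MRPL42, 0.291 for MRPS33 and 17.0 for MRPS18B. The median over the 77 genes was 1.98, so that the offset values of MRPL42, MRPS33 and MRPS18B are uncertain. The same holds for other members far from that median. Among them were MRPL43 (6.14), MRPL40 (5.24), MRPL45 (4.67), MRPS36 (4.18), MRPL23 (4.12) and MRPL4 (4.03) above it, and MRPS17 (0.383) and MRPS23 (0.498) below it. In 10 of the 23 the fall was cut by more than 1.5 times, among them MRPL41 (from -0.75 to -0.35, adjusted p = 0.0494), MRPL43 (from -0.64 to -0.42), MRPS12 (from -0.61 to -0.35) and MRPL27 (from -0.57 to -0.31). The calls lost were those of MRPL18, MRPL20, MRPL23, MRPL24, MRPL32, MRPL33, MRPL47, MRPL58, MRPS34 and MRPS36.

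**Figure D2:**
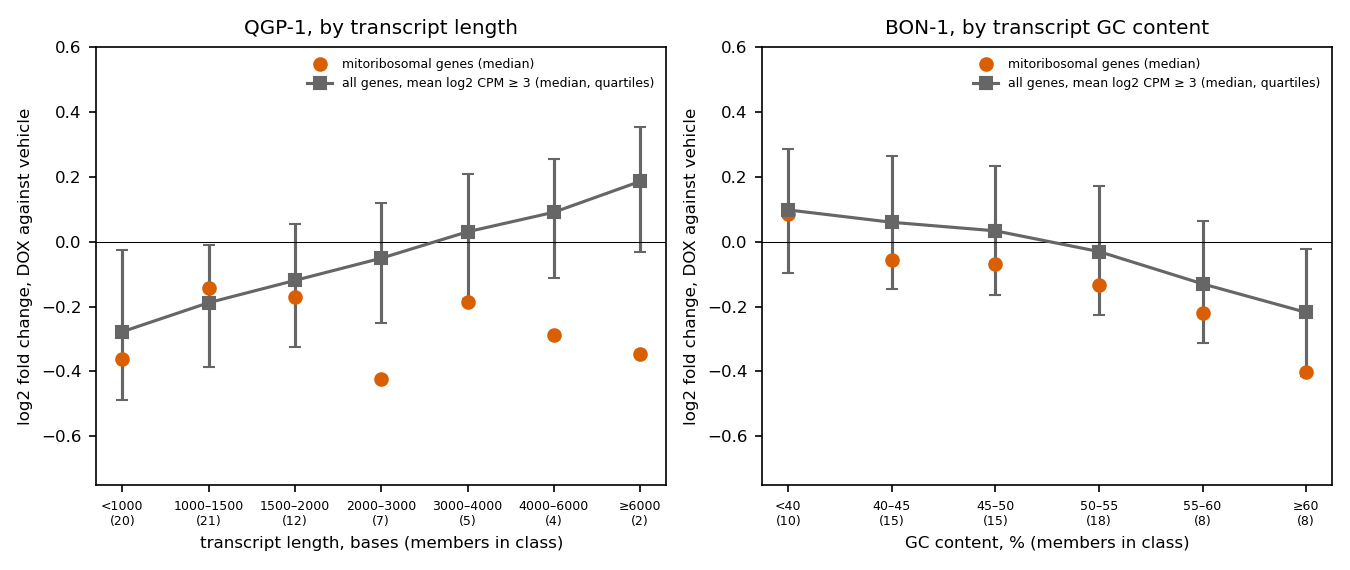
Log2 fold change with DOX by class of canonical transcript length in QGP-1 (left) and of transcript GC content in BON-1 (right), for genes at a mean log2 CPM of at least 3. Squares and bars are the median and quartiles of all such genes, circles the median of the mitoribosomal genes, whose number in each class stands in parentheses. In QGP-1 the all-gene median runs from -0.28 to 0.19 with length, and in BON-1 from 0.10 to -0.22 with GC content.

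In BON-1, DOX lowered 22 of the 77 genes and raised 8, against a background of 18.3% of 14625 genes tested called lower and 17.0% called higher. The median log2 fold change was -0.11 (all genes -0.01), -0.12 over the large and -0.07 over the small subunit genes. On the deposited TPM, where the median of all genes was -0.31, limma called 1 lower and 0 higher, with a relative median of -0.14. The large subunit had 14 lower and 4 higher of 49, and the small subunit 8 lower and 4 higher of 28. In 24 genes every DOX library lay below every vehicle library and in 10 every one lay above, against 23.0% and 22.8% of all genes tested (45.9% either way). Leaving out vehicle replicate 2 gave 14 lower and 5 higher, leaving out DOX replicate 3 gave 13 lower and 5 higher, and leaving out DOX replicate 1 gave 3 higher.

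MRPL17, the counterpart of a bacterial protein near the peptide exit, fell most. It was at 66.1, 54.4 and 59.7 CPM with vehicle and at 30.1, 29.4 and 29.98 CPM with DOX (-1.02 ± 0.09, adjusted p = 2.04e-09), with a wide gap between the groups. MRPS26, a small subunit protein without a bacterial counterpart, went from 34.9, 38.8 and 33.0 to 24.6, 20.7 and 16.1 CPM (-0.81 ± 0.13, adjusted p = 1.05e-05). MRPL28 went from 26.3, 21.3 and 18.6 to 12.6, 14.7 and 13.6 CPM (-0.70 ± 0.13, adjusted p = 0.00015). Neither overlapped between the groups. MRPL32, whose product is trimmed by the m-AAA protease before it joins the ribosome, fell from 49.7 ± 4.23 to 31.7 ± 5.004 CPM (-0.66 ± 0.11). MRPL42 fell here too, from 287, 307 and 342 to 200, 190 and 222 CPM (-0.63 ± 0.08, adjusted p = 8.79e-07). MRPL54, with 3.43 CPM on average with DOX, had a log2 fold change of -0.70 ± 0.25 (adjusted p = 0.0286) at low counts, with the lowest vehicle and the highest DOX library both at 4.77 CPM, and lost the call in 3 of the 6 fits without 1 library.

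**Figure D3:**
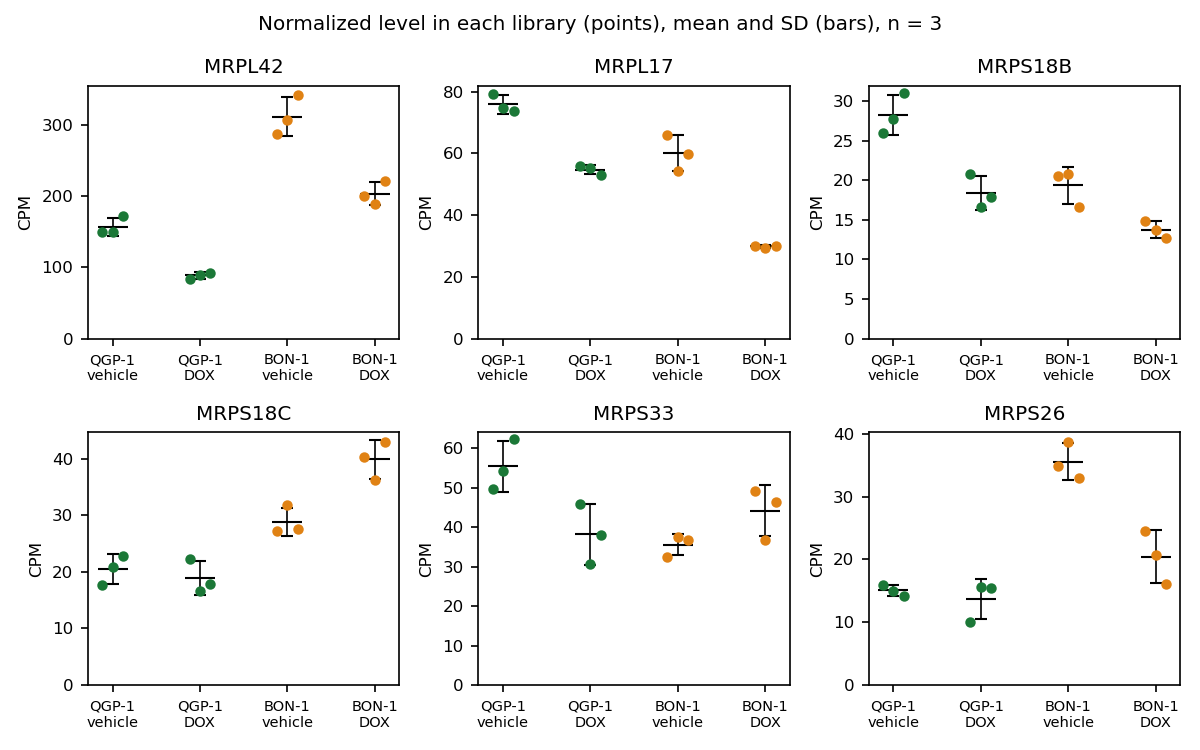
CPM of 6 genes in each library (points) with the mean and SD of 3 (bars), QGP-1 in green and BON-1 in orange. MRPL42, MRPL17 and MRPS18B are lower with DOX in both lines, MRPS18C is higher with DOX in BON-1, MRPS33 runs opposite ways in the 2 lines, and MRPS26 falls in BON-1 from 35.6 to 20.4 CPM.

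The 8 genes that rose in BON-1 had log2 fold changes of 0.22 to 0.46. MRPS18C was at 27.2, 31.7 and 27.6 CPM with vehicle and at 40.4, 36.2 and 43.0 CPM with DOX (0.46 ± 0.10, adjusted p = 0.000888). MRPL19 went from 139, 112 and 120 to 150, 153 and 165 CPM (0.32 ± 0.08, adjusted p = 0.00245). Every DOX library exceeded every vehicle library for both, and they were the members that stayed called higher in all 6 fits that left out a library. The others were MRPS22 (0.31), MRPS33 (0.30), MRPL35 (0.29), MRPL30 (0.27), MRPL44 (0.23) and MRPS30 (0.22), each of which lost its call in at least 1 of those fits.

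In BON-1 the response ran with GC content across all genes (rho -0.29 over 13444 genes) and over the members (rho -0.48 over 77). Among genes at a mean log2 CPM of at least 3, the 10 members under 40% GC had a median log2 fold change of 0.09, as against 0.10 for all genes of that class, and the 8 members at 60% GC or more a median of -0.40 against -0.22. With the length and GC offset 16 of the 77 members were lower and 10 higher. The shares of all genes called with the offset are not given here. Without it they were 18.3% lower and 17.0% higher, so that these counts do not set the members apart from all genes. MRPL17 (-1.03), MRPL42 (-0.73), MRPL32 (-0.68), MRPS26 (-0.58) and MRPL28 (-0.48) kept their calls, as did MRPS18C (0.43) and MRPL19 (0.21). In all, 14 of the 22 falls and 7 of the 8 rises were kept. The falls of MRPL4, MRPL23, MRPL27, MRPL38, MRPL54, MRPS7, MRPS12 and MRPS34 lost the call, with log2 fold changes of -0.54 (MRPL54) to -0.04 (MRPL38), as did the rise of MRPS33 (0.23, adjusted p = 0.0627).

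In both lines, calls in the same direction were shared by 13 genes of the 77, all of them lower, against a background of 7.23% of the 13535 genes tested in both lines that were called lower in both. MRPL17, MRPL18, MRPL23, MRPL27, MRPL32, MRPL42, MRPS7, MRPS9, MRPS12, MRPS18B, MRPS27, MRPS34 and MRPS35 fell in QGP-1 and in BON-1. They were 39.4% of the members lower in QGP-1 and 59.1% of those lower in BON-1, with 6 from the large and 7 from the small subunit. Over all genes, 978 were lower in both lines, beside 2676 lower in QGP-1 and 2677 lower in BON-1 among all those tested in each. The 39.4% for QGP-1 is therefore not particular to the members. With the length and GC offset, 6 of the 13 were still called lower in both lines, namely MRPL17, MRPL42, MRPS9, MRPS18B, MRPS27 and MRPS35. MRPS35 was at 162 ± 8.01 CPM in QGP-1 with vehicle and 122 ± 7.94 with DOX, and at 197 ± 4.45 and 159 ± 13.5 CPM in BON-1. MRPS27, a pentatricopeptide repeat protein whose gene holds RN7SL153P on the same strand, went from 121 ± 6.04 to 84.3 ± 6.21 CPM in QGP-1 and from 97.4 ± 2.98 to 82.8 ± 3.83 CPM in BON-1. MRPL23, a protein at the peptide exit, went from 20.8 ± 0.945 to 14.9 ± 1.09 CPM and from 11.9 ± 0.943 to 8.502 ± 1.17 CPM. MRPL17, MRPL32, MRPL42, MRPS12, MRPS18B, MRPS27 and MRPS35 kept the call in every fit that left out a library of either line. A further 19 genes fell in QGP-1 alone by the call and 9 in BON-1 alone, which does not show that the lines differed for them.

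The test of that difference, the interaction of line and DOX over all 12 libraries, called 11 of the 77 genes, against a background of 16.7% of 16598 genes. BON-1 responded higher than QGP-1 in 9 (8.80% of all genes) and lower in 2 (7.92%). The largest difference was that of MRPS33, which fell in QGP-1 and rose from 32.5, 37.5 and 36.8 to 49.1, 36.9 and 46.5 CPM in BON-1, where 1 DOX library lay within the vehicle range (difference in log2 fold change 0.85 ± 0.18, adjusted p = 0.00184). MRPS33 has 3 pseudogenes in GENCODE, and its BON-1 rise (adjusted p = 0.0279) no longer passed in 4 of the 6 fits with a library omitted. MRPS6, at 30.1 ± 0.876 CPM in QGP-1 and 29.3 ± 1.16 in BON-1 with vehicle, fell to 21.1 ± 1.52 in QGP-1 and was at 29.9 ± 2.20 in BON-1 with DOX (0.54 ± 0.14, adjusted p = 0.00857). MRPS15 differed by 0.49 ± 0.12, with a BON-1 log2 fold change of -0.13. MRPL17 ran the other way, with the deeper fall in BON-1 (-0.54 ± 0.12, adjusted p = 0.00294), as did MRPS26 (-0.67 ± 0.21, adjusted p = 0.0332). MRPL35, MRPL30, MRPL44, MRPL15, MRPS18C and MRPS22 differed by 0.43 to 0.58. MRPL17, MRPL35, MRPS6, MRPS15 and MRPS33 kept the call in all 12 fits that left out a library. With the length and GC offset 7 of the 11 kept it, and MRPS18C (0.30, adjusted p = 0.154), MRPS22 (0.22), MRPL44 (0.32) and MRPL15 (0.33) lost it. In all, the offset gave 4 lower and 8 higher. Among those called only with it were MRPL32 (-0.56, adjusted p = 0.00177) and MRPL28 (-0.52), and MRPL42 (0.30, adjusted p = 0.0346) and MRPL49 (0.30).

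**Figure D4:**
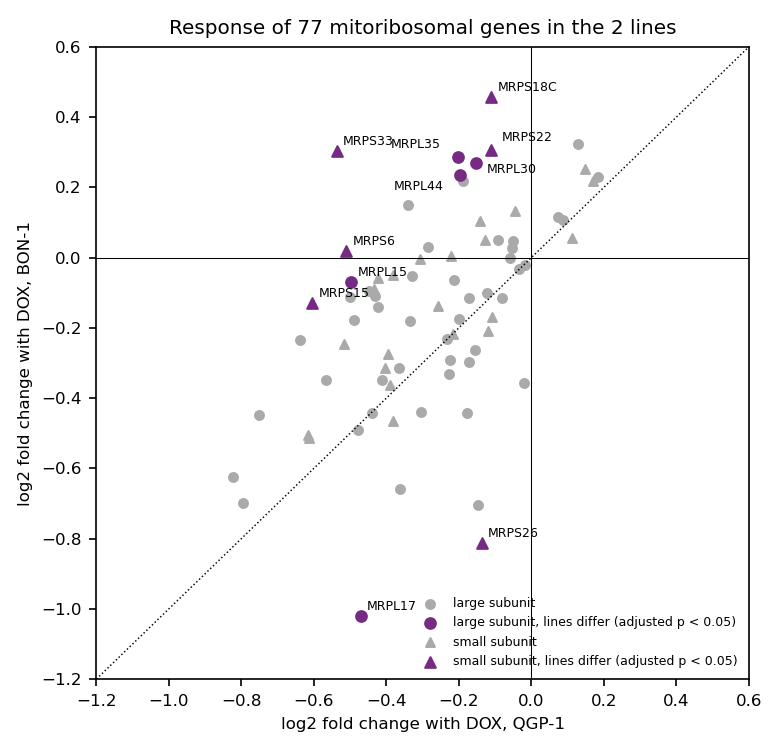
Log2 fold change with DOX in QGP-1 (x axis) against BON-1 (y axis) for the 77 genes, with circles for the large and triangles for the small subunit and the dotted line marking equal response. Purple marks the 11 genes whose responses differed between the lines, of which MRPL17 and MRPS26 lie below the dotted line and 9 above it.

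With vehicle alone, 29 members were lower and 27 higher in BON-1 than in QGP-1, 72.7% of the 77, against a background of 74.9% of all genes. MRPL52, a large subunit protein, was at 8.26, 8.07 and 6.496 CPM in QGP-1 and at 34.2, 38.1 and 34.6 CPM in BON-1 (log2 difference 2.23 ± 0.14, adjusted p = 1.71e-13). MRPS30 was at 82.9 ± 2.33 and 210 ± 10.6 CPM (1.34), MRPS26 at 15.1 ± 0.878 and 35.6 ± 2.94 CPM (1.24), MRPL47 at 37.2 ± 4.91 and 84.2 ± 0.401 CPM (1.18), MRPL15 at 45.4 ± 6.32 and 100.3 ± 4.20 CPM (1.14) and MRPL44, whose product has an RNase III-like fold, at 23.9 ± 2.59 and 51.0 ± 5.59 CPM (1.09). MRPS15 was lower in BON-1, at 94.7, 103 and 111 CPM against 232, 240 and 266 CPM (-1.26 ± 0.09, adjusted p = 2.2e-12), as was MRPL37, at 69.9 ± 3.33 against 150 ± 3.496 CPM (-1.10). MRPL41 (-0.89), MRPS36 (-0.83), MRPL23 (-0.81) and MRPL50 (-0.81) followed. All of these kept the call in the 12 fits that left out a library. With the large subunit at 17 lower and 18 higher and the small at 12 lower and 9 higher, both subunits held genes of either direction.

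The members' line differences ran with those of their chromosomes. Over the 77 genes the difference and the median difference of all genes tested on the same chromosome had a Spearman's rho of 0.58, a description across genes of which several share a chromosome, and 46 of the 56 called genes (82.1%) had the sign of that median. Over the 15132 tested genes with a chromosome in GENCODE, rho was 0.26 and 63.8% of those called had that sign. On chromosomes with a median of at least 0.1 in size, the sign was shared by 36 of 41 called members (87.8%) and 67.4% of all called genes. MRPL52 lies on chromosome 14, whose median was 0.85 over 510 genes, and MRPS26 on chromosome 20, whose median was 0.84 over 426 genes. MRPS30 on chromosome 5 (median -0.18) and MRPL44 on chromosome 2 (median -0.05) ran against theirs. Copy number was not measured, and its part was not tested.

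**Figure D5:**
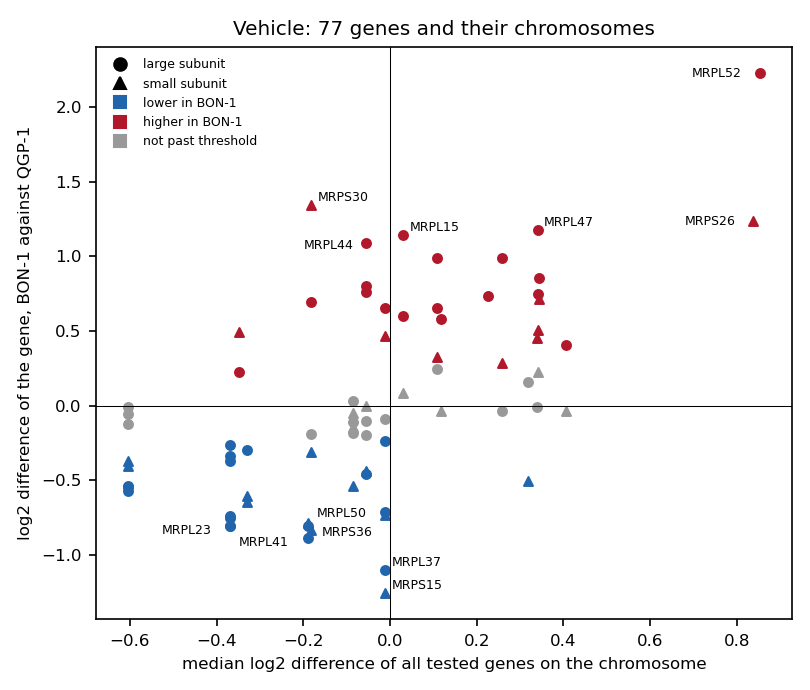
Log2 difference of each of the 77 genes between BON-1 and QGP-1 with vehicle (y axis) against the median log2 difference of all tested genes on its chromosome (x axis). Circles are large and triangles small subunit genes, colored by the call at an adjusted p below 0.05. MRPL52 and MRPS26 lie at the right, on chromosomes with medians of 0.85 and 0.84.

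MRPS18A, MRPS18B and MRPS18C are paralogs whose products descend from 1 bacterial small subunit protein and take different places, MRPS18C that of the bacterial protein and MRPS18A a place in the large subunit. MRPS18B fell in both lines, in BON-1 from 20.6, 20.8 and 16.7 to 14.8, 13.7 and 12.7 CPM (-0.51 ± 0.13, adjusted p = 0.00374). MRPS18C rose in BON-1 as given above and was at 17.6, 20.8 and 22.9 CPM with vehicle and 22.2, 16.6 and 17.9 CPM with DOX in QGP-1, where the groups overlapped (-0.11 ± 0.13, adjusted p = 0.541). MRPS18A did not pass in either line (-0.12 ± 0.12 in QGP-1 and -0.21 ± 0.11 in BON-1). MRPS18B is overlapped on the opposite strand by PPP1R10 and MRPS18C by ABRAXAS1, and whether counting used the strand is not given in the sources used here. GENCODE lists 2 MRPS18B and 3 MRPS18C pseudogenes.

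Other genes of mitochondrial translation were described by list, beside 17.7% lower and 17.3% higher over all genes in QGP-1 and 18.3% lower and 17.0% higher in BON-1. The shares of the lists below were 19.2% lower for assembly factors, 31.3% for translation factors and 12.5% for transcription and RNA processing in QGP-1, and 0%, 13.3% and 18.8% in BON-1, so that several lay near the background. Of 26 assembly factors tested, 5 fell and 0 rose in QGP-1 (median -0.02), and 0 fell and 2 rose in BON-1 (median 0.01). Of 16 translation factors, 5 fell and 2 rose in QGP-1, and 2 of 15 fell and 0 rose in BON-1. MTIF3, an initiation factor, was the 1 that fell in both (-1.10 ± 0.10 in QGP-1, adjusted p = 1.95e-06, and -0.83 ± 0.12 in BON-1), whereas TUFM, the elongation factor that brings aminoacyl-tRNA, fell in BON-1 (-0.63 ± 0.09) and was at -0.24 ± 0.11 in QGP-1 (adjusted p = 0.116). GFM1, an elongation factor, rose in QGP-1 (0.27 ± 0.08), as did MTRF1L (0.41 ± 0.10). GFM2 and MTRF1 fell there (-0.59 ± 0.08 and -0.62 ± 0.15), and their responses differed between the lines (adjusted p = 0.00528 and 0.00359 for the interaction). Of 16 genes of mitochondrial DNA transcription and RNA processing, 2 fell in QGP-1 and 3 in BON-1, with 0 higher in either. SSBP1, the mitochondrial single-stranded DNA binding protein, fell in both (-0.45 ± 0.10 and -0.31 ± 0.08). Of 7 further mitoribosome proteins, which include the members MRPL57 and MRPL58, 3 fell in QGP-1, and 3 fell and 1 rose in BON-1. DAP3, a GTP-binding small subunit protein, fell in both lines (-0.39 ± 0.08 and -0.23 ± 0.09).

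Of 10 regulators of mitochondrial gene expression, 2 fell and 3 rose in QGP-1, and 1 fell and 1 rose in BON-1. In QGP-1 these were 20% lower and 30% higher, beside 17.7% and 17.3% of all genes. In BON-1 they were 10% lower and 10% higher, beside 18.3% and 17.0%. GABPA, the DNA-binding subunit of the factor that recognizes the ETS core, was among those that fell in QGP-1 (-0.21 ± 0.07, adjusted p = 0.0308), and NRF1 passed in neither line (0.10 ± 0.15 and -0.19 ± 0.14). MYC, a transcription factor that promotes ribosome production, rose in both lines (0.24 ± 0.09, adjusted p = 0.0446, and 0.30 ± 0.09, adjusted p = 0.00657). The paper reported the other direction in both lines, with lower MYC mRNA by qRT-PCR and lower protein by immunoblot. The reason for the difference was not tested. The paper also lists MRPL23 and MRPS18B among MYC target genes lowered in both lines. The MYC partner MAX (0.46 ± 0.08) and the coactivator PPRC1 (0.36 ± 0.07) rose in QGP-1. The coactivator PPARGC1B fell in BON-1 from an average of 3.53 to 2.02 CPM (-0.81 ± 0.29, adjusted p = 0.0275). PPARGC1A, a coactivator of mitochondrial genes, fell in QGP-1 (-0.33 ± 0.09) and was at 0.22 ± 0.09 in BON-1 (adjusted p = 0.0668), and its responses differed between the lines (adjusted p = 0.00617). Cytosolic ribosomal proteins, 83 tested in QGP-1, had 74 lower and 0 higher with a median of -0.51, beside -0.23 for the mitochondrial set, and of 84 in BON-1, 24 were lower and 7 higher (median -0.14). Of 38 genes chosen by NDUF symbols, most of which encode subunits of complex I, 20 fell and 0 rose in QGP-1 (median -0.31). In BON-1, 8 of them fell and 5 rose (median -0.12). Complex I also holds products of the mitochondrial ribosome. For this list and the cytosolic ribosomal proteins, transcript length was not taken into account, and its part was not tested. Of all QGP-1 genes under 1000 bases at a mean log2 CPM of at least 3, 47.2% were called lower (median -0.28).

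The RNA parts of the ribosome are listed as RNR1 and RNR2, symbols that RefSeq gives to the ribosomal RNAs on mitochondrial DNA. They were identified by symbol alone, and the length of RNR2 that counts and TPM imply was 1.91 times that of RNR1, against 1.63 times in RefSeq. The libraries were selected for poly(A), so that their counts track the polyadenylated part of these RNAs. RNR2 was at 180, 198 and 176 CPM in QGP-1 with vehicle and at 14.8, 19.0 and 89.0 CPM with DOX (-2.17 ± 0.46, adjusted p = 0.00216), with DOX replicate 3 well above the other DOX libraries. Without it the log2 fold change was -3.46. In BON-1 it was at 11.4, 15.9 and 23.9 CPM with vehicle and at 36.8, 31.8 and 40.7 CPM with DOX (1.10 ± 0.16, adjusted p = 5.54e-06). RNR1 was at 28.5, 38.2 and 29.1 CPM in QGP-1 with vehicle and at 5.92, 9.91 and 31.0 CPM with DOX, where replicate 3 lay within the vehicle range (-1.04 ± 0.39, adjusted p = 0.0533). Without DOX replicate 3 its log2 fold change was -2.02 (adjusted p = 5.23e-06), and without DOX replicate 1 it was -0.63 (adjusted p = 0.121). In BON-1 RNR1 was low, at 1.36, 2.33 and 3.74 CPM with vehicle (39, 54 and 70 counts). It was at 6.19, 4.89 and 8.87 CPM with DOX, a rise of 1.45 ± 0.29 on the log2 scale (adjusted p = 0.00024). The responses of RNR2 (3.29 ± 0.55, adjusted p = 0.000194) and RNR1 (2.52 ± 0.58, adjusted p = 0.00371) differed between the lines, and kept the call in the 12 fits that left out a library.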

How the data were processed

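The authors aligned TruSeq Stranded mRNA reads with STAR to GRCh38 and deposited, for each line, 1 table of raw gene counts and 1 of TPM, both with 1 column per library. The TPM were scaled by gene length and to a common library total by the authors, with lengths not given in the sources used here, as are the counter, its strand setting and its annotation. Counts were tested with edgeR 4.0.16 (filterByExpr, TMM, quasi-likelihood F test) in R 4.3.3, per line for DOX against vehicle, and over 12 libraries for the interaction and for BON-1 against QGP-1. Calls used a Benjamini-Hochberg adjusted p below 0.05 over all genes tested. CPM were scaled over all 12 libraries. Totals of 15981954 to 50525926 counts limit the precision, most for MRPL54, which had the fewest counts of the genes tested. Alternatives used DESeq2 1.42.0, limma 3.58.1 on log2(TPM + 1), other scalings and filters, omitted libraries, a replicate block and, added after seeing the data, an offset for transcript length and GC content (natural splines with 4 degrees of freedom, GENCODE 44). Of these fits, the main edgeR fit and the DESeq2 fit alone were tested on simulated data. Promoters are RefSeq's on GRCh38.p14. Files gave symbols without coordinates, which are GENCODE's. Genes named with values were the 8 most negative and 8 most positive calls per line, genes called in both lines, in the interaction or with the 6 largest line differences each way, the 3 most and 3 least abundant, members failing the filter, the MRPS18 paralogs, MRPL23 and MRPS18B as genes the study lists, MUC1, RNR1 and RNR2. List genes and pseudogenes named beside them were chosen after their values were seen. The members, lists and motifs were chosen with earlier results of these data known.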

Additional observations from a re-analysis of the deposited data

Results flagged for a closer look

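For 11 genes the response to DOX differed between the lines by the test of the interaction, given as the BON-1 minus the QGP-1 log2 fold change. It was higher in BON-1 for MRPS33 (0.85), MRPS18C (0.58), MRPS6 (0.54), MRPL35 (0.50), MRPS15 (0.49), MRPL44 (0.44), MRPL15 (0.44), MRPL30 (0.43) and MRPS22 (0.43), and lower for MRPL17 (-0.54) and MRPS26 (-0.67). With the length and GC offset the calls of MRPS18C (0.30), MRPS22 (0.22), MRPL44 (0.32) and MRPL15 (0.33) were lost, and others were gained as given above. The share of the 11 genes, 14.3% of the 77 tested, stood beside 16.7% of all genes.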

How the results depend on the processing

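For DOX in each line, the interaction and the line difference, counts of genes called stayed within 1.5 times of the reported ones under DESeq2, RLE scaling, both count filters and 1 fit of 12 libraries. Scaling by library size left 5 genes higher in BON-1. On log2(TPM + 1), where the median of all genes itself moved by 0.59 in QGP-1, -0.31 in BON-1, -0.88 in the interaction and 1.09 between lines, the counts were 0 lower and 60 higher in QGP-1, 1 and 0 in BON-1, 49 and 0 in the interaction and 0 and 71 between lines. Relative to that median, the members' median was -0.20 in QGP-1 and -0.14 in BON-1, -0.026 in the interaction and 0.13 between lines, and MRPS22 in QGP-1 turned to 0.0097. A minimum log2 fold change of 0.5 left 11 lower in QGP-1 and 8 lower and 0 higher in BON-1, and a minimum of 1 left 2 lower and 6 higher between lines. The length and GC offset gave 4 higher in QGP-1 with a relative median of -0.10, 4 lower in the interaction with 0.032, and -0.00013 between lines. Beyond these constructions the cause was not tested.

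Leaving out each library in turn gave 25 to 36 lower and 0 to 1 higher in QGP-1 (relative median -0.27 to -0.22), 13 to 25 lower and 3 to 8 higher in BON-1 (-0.14 to -0.05), 1 to 4 lower and 4 to 12 higher in the interaction (0.055 to 0.18), and 27 to 30 lower and 24 to 28 higher between lines (-0.14 to -0.056). The 1 higher came without QGP-1 DOX replicate 3. In the interaction, 4 higher were left without QGP-1 DOX replicate 2 or BON-1 DOX replicate 1 and 5 without QGP-1 vehicle replicate 3.

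Same-numbered libraries correlated at -0.04 to 0.07, so that the replicate numbers were not taken to pair the samples. With the replicate block, 36 were lower and 0 higher in QGP-1, 23 and 8 in BON-1, 2 and 9 in the interaction, and 29 and 29 between the vehicle libraries.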
